A study of Homo sapiens with 30 samples.

Results

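Semaphorins, ephrins and SLITs are the cues, and plexins, neuropilins, Eph receptors and ROBOs the receptors, of the signalling systems that steer growing axons and vessels. Their genes were chosen by name alone, as every entry of the 2 deposited count tables whose symbol belongs to the families SEMA3 to SEMA7, PLXN, NRP, EPH, EFN, SLIT or ROBO. This gave 60 of the 26475 genes listed: 20 semaphorins, 9 plexins, 2 neuropilins, 8 ephrins, 14 Eph receptors, 3 SLITs and 4 ROBOs. A gene was described where its mean reached 1 CPM (counts per 10 to the power 6 of the library, scaled by TMM) in at least 1 group of a table, which 49 genes did in the first table and 46 in the second. All of these, with 1 further gene in the first table and 3 in the second, passed the filter on low counts and were tested.

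All samples descend from the triple-negative human breast cancer line MDA-MB-231, and the study's title concerns how clones cooperate by exchanging metabolites when metastases grow out. Bulk mRNA was sequenced from lineages 22, 35 and 45, each taken from co-culture and from isolation (first table, 6 groups), and from lineages 03, 10 and 13 and a sample named Pop, all from isolation (second table, 4 groups). Every group had 3 libraries. All cells grew in RPMI-1640 medium with 10% dialyzed fetal bovine serum and 2 mM L-glutamine, none received a treatment, and every library carried the genotype label wt, distinct lineage. Isolated cells were cultured for about 24 h and lysed on the dish in TRIzol. Co-cultured cells spent 15 days in a mixture of 6 members, passaged through a bottleneck every 3 days, and were then separated by flow sorting and extracted with another RNA kit. Culture time, sorting and extraction therefore cannot be told apart from co-culture itself. The series' design text calls the numbered lineages clones, so each stands for 1 clone of 1 cell line, and what Pop is was not given in the sources used here. The sources also do not say that the 3 libraries of a group were separate cultures, so p-values measure the spread between these libraries, which may be technical.

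Class 3 semaphorins are secreted and mostly signal through a complex in which a neuropilin binds the ligand and a plexin carries the signal into the cell, where it acts on small GTPases and the cytoskeleton. The other semaphorins of vertebrates are anchored in the membrane and bind plexins directly. Ephrins and Eph receptors are both membrane-bound, so they signal between touching cells and often in both directions, and SLITs are secreted ligands that repel cells carrying ROBO receptors. In breast cancer the same genes are studied for their part in migration, invasion and the recruitment of vessels.

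Libraries of the first table held 29.8 to 38.8 M counts (M for mega) and those of the second 28.1 to 35.4 M, and libraries of a group varied by a biological coefficient of variation of 10.4% in each table. Markers of the mesenchymal cell line (VIM, CD44, KRT18, AXL, CAV1 and ZEB1) were present in all 10 groups, the lowest being ZEB1 at 65.1 CPM, and of genes usually low in this line the highest group mean was 0.0419 CPM for ESR1, 0.101 for PGR and 1.52 for CDH1, while GATA3 had 6.32 to 22.7 CPM. Of 6 endothelial markers CDH5, ERG, VWF and TEK stayed under 0.5 CPM in every group, PECAM1 reached 9.03 CPM and was under 1 CPM in 4 of the 10 groups, and ESAM had 6.65 to 140.4 CPM. The glial list summed to at most 1.05 CPM. Libraries labelled 35 from co-culture stood closer to isolated 45 cells than to isolated 35 cells. Over the 49 guidance genes the root mean square log2 difference between group means was 0.822 from isolated 45 and 1.97 from isolated 35, while 22 and 45 cells from co-culture were each closest to their own isolated group (0.943 and 0.769). Over 14570 genes the correlation of group means, a description across genes, was 0.969 with isolated 45 and 0.929 with isolated 35. The sources do not show that both groups labelled 35 hold the same cells, so results that rest on them are given by label, and counts are also given for lineages 22 and 45 alone.

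**Figure D1:**
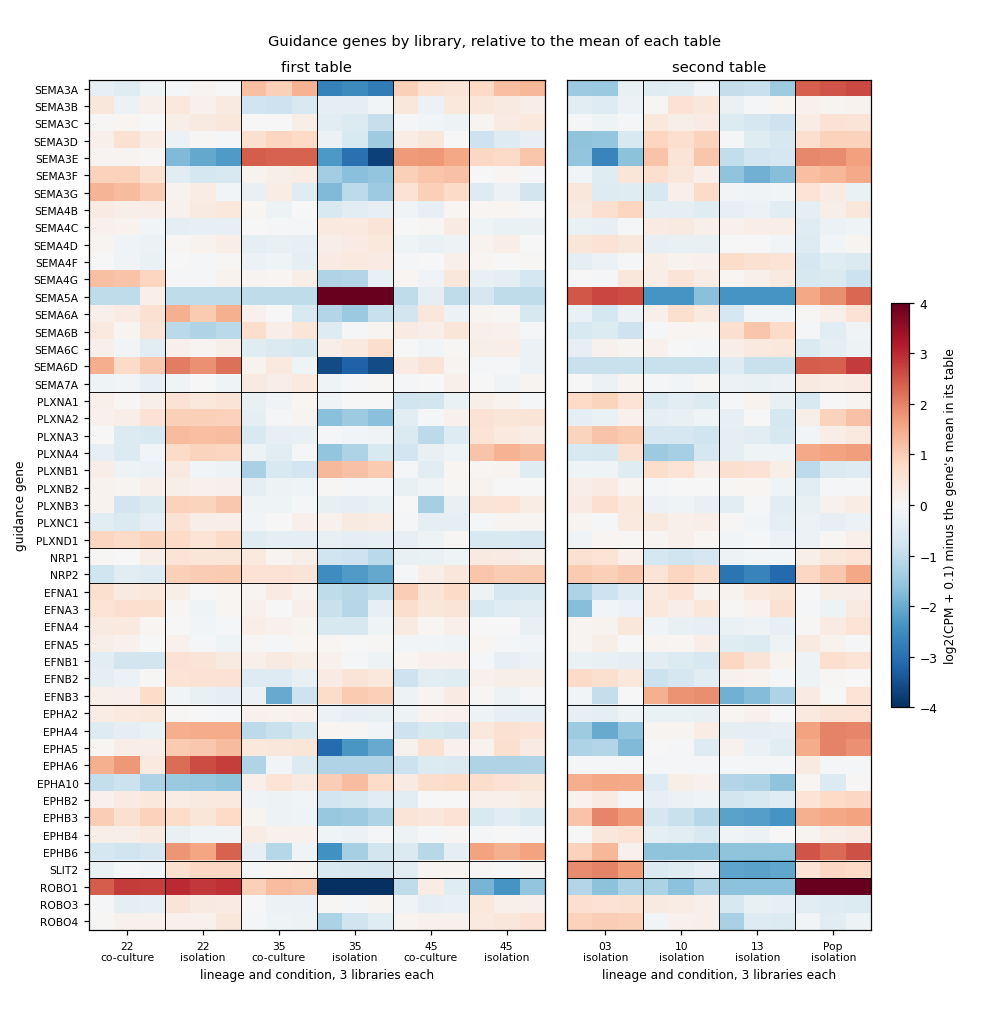
Levels of the 49 guidance genes described in the first table, in all 30 libraries of both tables. Rows are genes grouped by family, columns are libraries with co-culture left of isolation in each lineage and Pop at the right, and the colour is log2(CPM + 0.1) minus the gene's mean within its own table. Isolated libraries labelled 35 are low for NRP2, SEMA3A, SEMA3E and ROBO1, the last at 0.0968 to 0.194 CPM, and high for SEMA5A at 3.27 to 6.59 CPM.

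The receptor EPHA2 was the most abundant guidance transcript per length in 9 of the 10 groups. Scaled per kb of its exons, EPHA2 reached 132.6 CPM per kb in 22 cells from co-culture and 102.7 in isolated 22 cells, the highest values of any guidance gene in those groups. Lineage 03 was the exception, with plexin A1 (PLXNA1) at 69.8 CPM per kb ahead of EPHA2 at 54.4. The semaphorin and VEGF co-receptor NRP1, PLXNA1 and plexin B2 (PLXNB2) stood among the 5 highest in every group. Since the deposited counts had already been scaled by length, these ranks are approximate. At the other end, 11 genes stayed under 1 CPM in every group of both tables (EFNA2, EPHA1, EPHA3, EPHA7, EPHA8, EPHB1, ROBO2, SEMA4A, SEMA5B, SLIT1 and SLIT3). Just inside the threshold in the first table were EFNB3 at 1.11 CPM, EPHA6 at 1.27 and SEMA6A at 1.35 in their highest groups, and in the second table SEMA6D fell just outside at 0.984 CPM.

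The promoters of 4 genes are shown because their transcripts varied widely between groups. SEMA5A, NRP2, ROBO1 and SEMA3E each had groups with a mean under 2 CPM and others several times higher, as given below, and their promoters differ in CG dinucleotides, the base pairs at which human DNA can be methylated. Methylation was not measured here. Each sequence is the 250 bases before a RefSeq transcription start (GRCh38.p14), read 5′ to 3′ on the gene's strand, with every CG in capitals, and both listed starts are shown for ROBO1 and SEMA3E.
SEMA5A (chr5:9546076-9546325, minus strand): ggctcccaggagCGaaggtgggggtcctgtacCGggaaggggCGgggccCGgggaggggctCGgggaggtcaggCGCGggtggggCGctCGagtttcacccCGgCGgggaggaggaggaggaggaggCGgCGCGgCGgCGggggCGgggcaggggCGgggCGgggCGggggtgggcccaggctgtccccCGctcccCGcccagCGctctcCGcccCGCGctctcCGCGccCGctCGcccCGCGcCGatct
NRP2 (chr2:205682251-205682500, plus strand): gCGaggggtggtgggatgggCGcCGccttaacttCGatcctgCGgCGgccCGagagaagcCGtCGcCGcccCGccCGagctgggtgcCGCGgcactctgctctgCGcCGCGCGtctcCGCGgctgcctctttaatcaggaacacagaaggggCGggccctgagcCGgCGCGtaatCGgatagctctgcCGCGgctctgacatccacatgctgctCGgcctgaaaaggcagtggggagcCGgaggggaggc
ROBO1, first of 2 listed starts, at the 5′ end of the gene (chr3:79767999-79768248, minus strand): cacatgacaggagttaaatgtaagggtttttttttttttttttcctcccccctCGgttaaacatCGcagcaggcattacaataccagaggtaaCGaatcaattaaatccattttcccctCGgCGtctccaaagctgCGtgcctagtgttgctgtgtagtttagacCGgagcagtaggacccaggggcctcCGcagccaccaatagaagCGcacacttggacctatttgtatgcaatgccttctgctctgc
ROBO1, second of 2 listed starts (chr3:79019460-79019709, minus strand): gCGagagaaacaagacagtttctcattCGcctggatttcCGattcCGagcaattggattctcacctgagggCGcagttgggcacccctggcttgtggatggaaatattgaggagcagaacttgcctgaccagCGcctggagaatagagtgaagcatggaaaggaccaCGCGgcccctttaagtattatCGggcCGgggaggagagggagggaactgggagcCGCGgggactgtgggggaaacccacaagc
SEMA3E, first of 2 listed starts, at the 5′ end of the gene (chr7:83649140-83649389, minus strand): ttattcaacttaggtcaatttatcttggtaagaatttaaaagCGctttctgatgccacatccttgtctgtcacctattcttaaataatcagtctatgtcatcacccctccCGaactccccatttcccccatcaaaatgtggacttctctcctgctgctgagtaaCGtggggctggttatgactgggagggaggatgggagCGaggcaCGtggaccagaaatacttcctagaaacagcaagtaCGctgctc
SEMA3E, second of 2 listed starts (chr7:83641432-83641681, minus strand): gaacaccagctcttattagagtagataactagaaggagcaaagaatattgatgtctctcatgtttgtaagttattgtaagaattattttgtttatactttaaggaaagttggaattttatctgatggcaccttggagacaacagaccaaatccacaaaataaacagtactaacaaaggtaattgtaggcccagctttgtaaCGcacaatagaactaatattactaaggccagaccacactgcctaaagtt
The SEMA5A window held 33 CG and the NRP2 window 29, counts that 8.15% and 14.1% of all 35116 windows of this length reach. ROBO1 had 9 at its first and 12 at its second start, which 54.1% and 48.5% of windows reach. SEMA3E had 6 at its first and 1 at its second, which 61.9% and 93.9% of windows reach. The NRP2 window and the second windows of ROBO1 and SEMA3E lie inside the genes as annotated in GENCODE v29. The first listed starts of ROBO1 and SEMA3E lie upstream of the genes as annotated there, whose 5′ ends are at 79767815 and 83649113. The bases checked after these starts reached outside the annotated genes, so they could match no GENCODE v29 transcript. The letters TATAAA, searched on both strands, were in the window of the second SEMA3E start and in none of the other 5. There they lie on the strand opposite to the gene, so the sequence shown reads TTTATA. That motif was in 10.7% of all windows and in 3 of 85 windows of guidance genes (3.53%). RefSeq windows were found for 54 of the 60 genes, with a median of 17.0 CG against 11.0 over all windows.

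Guidance genes differed between co-culture and isolation in directions that varied with the lineage. In lineage 22, 11 of the 49 were higher in cells from co-culture and 21 lower, where 27.0% and 30.0% of all tested genes were higher and lower (edgeR quasi-likelihood test, Benjamini-Hochberg (BH) adjusted p below 0.05, here and throughout). Libraries labelled 35 had 28 higher and 12 lower, with 32.7% and 32.9% of all genes. Lineage 45 had 13 higher and 15 lower, with 18.6% and 23.2% of all genes. The share of the 49 genes called lay furthest above that of all genes among those higher for label 35 and those lower in 22. The median log2 fold change of the 49 genes was -0.13, 0.45 and -0.06 in lineages 22, 35 and 45, beside -0.04, 0.01 and -0.03 over all genes tested. Only EFNA5, the ligand ephrin-A5, was called in no lineage, and 14 genes were called in opposite directions in different lineages.

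**Figure D2:**
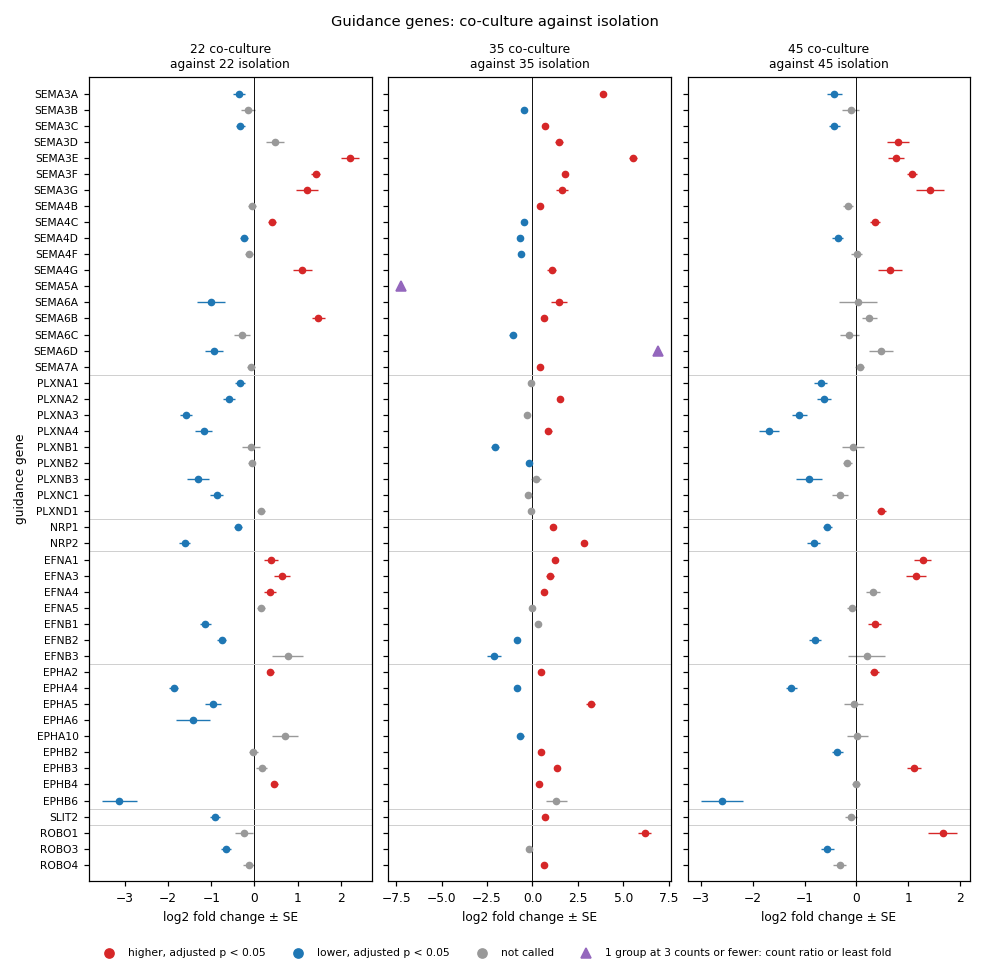
Log2 fold change of each guidance gene between cells from co-culture and isolated cells, for lineages 22, 35 and 45. Points are edgeR estimates with bars of 1 SE, red where higher, blue where lower and grey where not called, and triangles are count ratios or bounds of genes with 3 or fewer counts in a group. EPHA6 and SEMA5A are blank where counts were too few for either. NRP2, SEMA3A and PLXNA2 lie right of 0 in 35 and left of 0 in 22 and 45, and SEMA3F and EPHA2 lie right of 0 in all 3.

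Among the secreted class 3 semaphorins, SEMA3E and SEMA3F were higher from co-culture in all 3 lineages while SEMA3A went both ways. SEMA3E is the ligand of plexin D1 and needs no neuropilin (chromosome 7, 83363238 to 83649113, minus strand; GENCODE v29 on GRCh38, as for all genes). Its CPM were 4.48, 4.49 and 4.27 in 22 cells from co-culture, against 1.15, 0.930 and 0.785 in isolated 22 cells (log2 fold change 2.21 ± 0.20, the second value being the SE here and below, adjusted p = 4.3e-08). Libraries labelled 35 had 22.9, 21.7 and 21.7 CPM from co-culture, against 0.775, 0.443 and 0.218 from isolation (log2 fold change 5.53 ± 0.22, adjusted p = 2.2e-14). In lineage 45 the values were 13.9, 14.2 and 12.5 CPM from co-culture, against 7.56, 7.16 and 9.21 from isolation (log2 fold change 0.76 ± 0.16, adjusted p = 6.7e-04). Co-culture and isolation did not overlap in any of the 3, and the gene had its highest level from co-culture in the libraries labelled 35 and, among isolated cells, in lineage 45. In a bulk sample, fewer cells of a kind and less RNA per cell cannot be told apart, here and in all comparisons.

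SEMA3F, a repellent that binds NRP2 (chromosome 3, 50155045 to 50189075, plus strand), was likewise higher in every library from co-culture. It stood at 25.9, 26.3 and 21.2 CPM in 22 cells from co-culture, against 9.96, 8.46 and 8.95 in isolated 22 cells (log2 fold change 1.42 ± 0.11, adjusted p = 3.1e-09). For label 35 it stood at 15.1, 16.1 and 17.1 CPM from co-culture, against 5.13, 4.21 and 4.57 from isolation (log2 fold change 1.80 ± 0.11, adjusted p = 3.0e-11). Lineage 45 had 26.8, 30.0 and 31.0 CPM from co-culture, against 13.8, 14.6 and 13.4 from isolation (log2 fold change 1.07 ± 0.10, adjusted p = 1.6e-07). The folds ran up to 3.47 for label 35 and down to 2.10 in 45, with no overlap between co-culture and isolation in any lineage. The change differed between the lineages (interaction adjusted p = 0.0016), being larger for label 35 than in 45 by 0.73 ± 0.15 on the log2 scale (adjusted p = 5.8e-04), with a difference of -0.37 ± 0.15 between 22 and label 35 (adjusted p = 0.0498). SEMA3G rose with it in all 3 at low levels, its highest mean being 1.73 CPM in 22 cells from co-culture.

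SEMA3A, the ligand of NRP1 (chromosome 7, 83955777 to 84492724, minus strand), changed most in the libraries labelled 35. They held 63.7, 53.1 and 71.6 CPM from co-culture, against 4.13, 4.65 and 3.89 from isolation (log2 fold change 3.89 ± 0.17, adjusted p = 3.2e-13). In lineage 45 it was 53.5, 41.6 and 39.3 CPM from co-culture, against 47.3, 63.8 and 69.3 from isolation, and the groups overlapped (log2 fold change -0.43 ± 0.14, adjusted p = 0.019). Lineage 22 had 21.6, 19.5 and 24.2 CPM from co-culture, against 26.7, 29.3 and 27.5 from isolation, without overlap (log2 fold change -0.35 ± 0.14, adjusted p = 0.042). The calls in 22 and 45 were each lost when single libraries were left out (in 22 any but the third from co-culture, in 45 replicate 2 or 3 of either group), with adjusted p up to 0.155 and 0.106. SEMA3C, another secreted member, fell in 22 (-0.32 ± 0.11, a call lost without the third isolated library) and 45 (-0.42 ± 0.11) and rose in 35 (0.70 ± 0.11). SEMA3D rose in 35 (1.47 ± 0.21) and 45 (0.80 ± 0.21). SEMA3B had 16.9 ± 1.52 CPM (mean ± SD, n = 3, as for all means below) in libraries labelled 35 from co-culture, against 23.2 ± 2.47 from isolation, a call that was lost without any 1 of 3 libraries (the third isolated one, or the first or second from co-culture).

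The neuropilins, co-receptors for class 3 semaphorins and VEGF, moved in opposite directions in different lineages. NRP2 (chromosome 2, 205681990 to 205798133, plus strand) had 5.37, 6.98 and 6.56 CPM in 22 cells from co-culture, against 18.6, 19.4 and 19.8 in isolated 22 cells (log2 fold change -1.61 ± 0.13, adjusted p = 7.2e-09). In lineage 45 it had 8.99, 11.4 and 13.1 CPM from co-culture, against 20.4, 19.5 and 19.7 from isolation (log2 fold change -0.83 ± 0.12, adjusted p = 3.0e-05). Libraries labelled 35 went the other way, with 14.1, 14.1 and 13.7 CPM from co-culture, against 1.61, 1.91 and 2.24 from isolation (log2 fold change 2.86 ± 0.15, adjusted p = 1.2e-12). All isolated 22 and 45 libraries lay above every library from co-culture, and the isolated libraries labelled 35 lay below all others. NRP1, which was far more abundant, was also lower from co-culture in 22 and 45 and higher for label 35. Its CPM were 590.0, 487 and 533 in libraries labelled 35 from co-culture, against 258, 255 and 213 from isolation (log2 fold change 1.15 ± 0.09, adjusted p = 7.9e-10). It fell in 22 to 488 ± 46.1 CPM from co-culture, against 638 ± 14.4 from isolation (log2 fold change -0.39 ± 0.09, adjusted p = 0.0010), and in 45 to 383 ± 17.9 CPM, against 564 ± 23.9 (log2 fold change -0.56 ± 0.09, adjusted p = 5.7e-05). In lineages 22 and 45 the ligand SEMA3F was therefore higher and its receptor NRP2 lower from co-culture, whereas for label 35 both were higher.

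**Figure D3:**
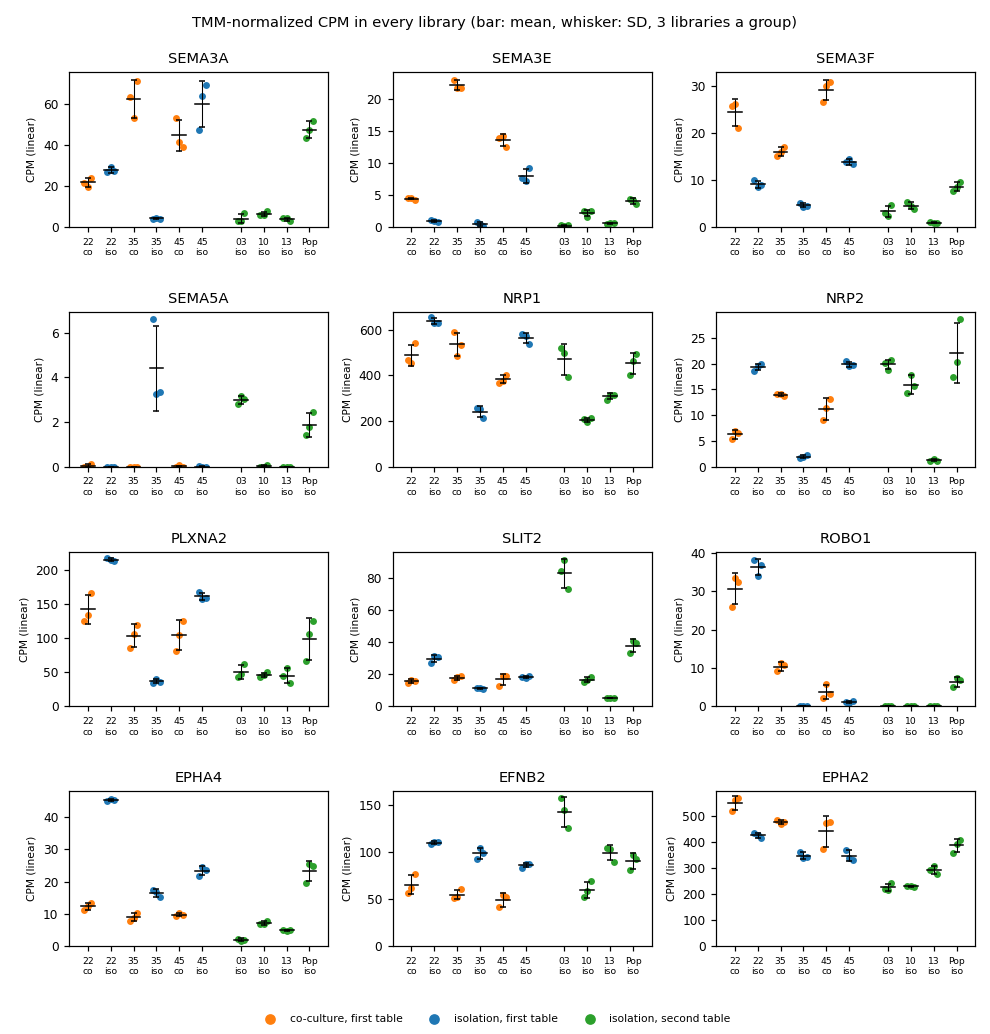
CPM of 12 guidance genes in each library of the 10 groups, on linear axes with a panel for each gene. Points are libraries, short lines are group means and whiskers are SD. Co-culture lies left of isolation for each lineage of the first table. Lineages 03, 10 and 13 lie left of Pop for the second table, which was normalized separately. NRP2 lies at 5.37 to 6.98 CPM in 22 cells from co-culture, against 18.6 to 19.8 in isolated 22 cells, and at 1.03 to 1.45 CPM in lineage 13.

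Of the 9 plexins, the signalling receptors for semaphorins, none rose and 6 fell in lineage 22 (27.0% and 30.0% of all genes), 1 rose and 5 fell in 45 (18.6% and 23.2%), and 2 rose and 2 fell for label 35 (32.7% and 32.9%). PLXNA3 (chromosome X, 154458281 to 154477779, plus strand) had 46.3, 31.9 and 30.2 CPM in 22 cells from co-culture, against 112, 106 and 109 in isolated 22 cells (log2 fold change -1.59 ± 0.15, adjusted p = 8.9e-08). In lineage 45 it had 30.8, 22.4 and 32.7 CPM from co-culture, against 67.4, 60.4 and 57.0 from isolation (log2 fold change -1.11 ± 0.15, adjusted p = 1.2e-05). No library overlapped between the groups in either lineage, and for label 35 PLXNA3 had 34.9 ± 4.05 CPM from co-culture, against 43.3 ± 1.66 from isolation, which was not called. PLXNA2 (chromosome 1, 208022242 to 208244320, minus strand) rose to 86.4, 106 and 120.1 CPM in libraries labelled 35 from co-culture, against 35.0, 40.3 and 35.2 from isolation (log2 fold change 1.499 ± 0.140, adjusted p = 2.6e-08). It fell in 22 (log2 fold change -0.59 ± 0.13, adjusted p = 0.0011) and in 45 (log2 fold change -0.63 ± 0.14, adjusted p = 0.0011).

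PLXNA4 repeated that split at lower levels. It fell in 45 to 3.86 ± 0.804 CPM from co-culture, against 12.4 ± 1.06 from isolation (log2 fold change -1.69 ± 0.19, adjusted p = 1.0e-06), fell in 22 (-1.18 ± 0.19) and rose for label 35 (0.88 ± 0.20). PLXNB1, the receptor of SEMA4D, fell for label 35 to 1.97, 3.24 and 2.88 CPM from co-culture, against 12.4, 11.2 and 10.3 from isolation (log2 fold change -2.07 ± 0.22, adjusted p = 7.4e-08). PLXND1, the receptor of SEMA3E, had 159.5, 149 and 162 CPM in 22 cells from co-culture, against 148, 126 and 149 in isolated 22 cells, groups that met at 149 CPM and were not called apart. It rose in 45 (log2 fold change 0.48 ± 0.09, adjusted p = 2.2e-04) and was not called for label 35 (65.1 ± 2.85 CPM from co-culture and 69.1 ± 1.46 from isolation). Of the remaining plexins, PLXNB3 fell in 22 (-1.31 ± 0.25) and 45 (-0.92 ± 0.25), PLXNA1 fell in 45 (-0.69 ± 0.12), and PLXNC1 fell in 22 (-0.87 ± 0.15). PLXNB2 fell for label 35 by little (-0.19 ± 0.08), a call lost without any 1 of its 6 libraries. PLXNA1 was also called lower in 22 (-0.33 ± 0.12), but not without isolated replicate 1 or 3 or its second from co-culture.

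Among membrane-bound semaphorins, SEMA5A was detected in isolation but not from co-culture in the libraries labelled 35. SEMA5A, a transmembrane protein with thrombospondin repeats (chromosome 5, 9035026 to 9546075, minus strand), had 0 counts in all 3 libraries labelled 35 from co-culture, against 6.59, 3.27 and 3.33 CPM and 429 counts in isolation. That is at least 149-fold lower, with the floor of 3 counts taken over the group. Isolated 45 cells had 1 count in all and isolated 22 cells none. SEMA6D, a transmembrane ligand of plexin A1, had 125 counts in libraries labelled 35 from co-culture, against 1 count in isolation (ratio 120.2, 95% interval 21.2 to 4784, for counting error only). It fell in 22 to 2.49 ± 0.618 CPM from co-culture, against 4.79 ± 0.657 from isolation (log2 fold change -0.94 ± 0.21, adjusted p = 6.6e-04). SEMA6B rose in 22 to 78.4, 63.4 and 84.1 CPM from co-culture, against 27.7, 25.5 and 27.9 from isolation (log2 fold change 1.48 ± 0.15, adjusted p = 2.7e-07), and for label 35 (0.64 ± 0.14).

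SEMA4D, the plexin B1 ligand, was lower in all 3 lineages, most for label 35 (log2 fold change -0.68 ± 0.10, adjusted p = 4.5e-06). In lineage 22 the call (adjusted p = 0.044) was lost without replicate 2 or 3 of either group. SEMA4C, a plexin B2 ligand, rose in 22 (0.41 ± 0.09) and 45 (0.36 ± 0.09) and fell for label 35 (-0.46 ± 0.09). SEMA4G rose in all 3, with 3.48 ± 0.453 CPM in 22 cells from co-culture, against 1.61 ± 0.145 in isolated 22 cells. Its call in 45 (0.64 ± 0.23) was lost without isolated replicate 2 or 3 or the third from co-culture. For label 35, SEMA4B (0.40 ± 0.10), SEMA6A (1.44 ± 0.44) and SEMA7A (0.42 ± 0.09) rose, and SEMA4F (-0.61 ± 0.10) and SEMA6C (-1.07 ± 0.19) fell. SEMA7A, which is held by a lipid anchor and binds plexin C1, and SEMA4B, SEMA4F and SEMA6C were not called in 22 or 45, and SEMA6A fell in 22 (-1.01 ± 0.32).

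Ephrins of the A class are lipid-anchored and those of the B class span the membrane, and calls differed from gene to gene. EFNA1, EFNA3 and EFNA4 lie close together on chromosome 1, within 155063731 to 155134857. EFNA1 rose for label 35 to 3.58, 4.18 and 3.72 CPM from co-culture, against 1.61, 1.496 and 1.68 from isolation (log2 fold change 1.26 ± 0.17, adjusted p = 1.8e-06). In 45 it rose to 6.65, 4.86 and 5.72 CPM, against 2.91, 2.08 and 2.13 (log2 fold change 1.28 ± 0.16, adjusted p = 3.7e-06). In 22 it had 5.25, 4.34 and 4.47 CPM from co-culture, against 3.97, 3.27 and 3.53 from isolation, without overlap, a call (log2 fold change 0.39 ± 0.16, adjusted p = 0.040) that was lost without isolated replicate 2 or 3 or the first from co-culture. EFNA3 rose in all 3 (0.65 ± 0.19, 0.96 ± 0.21 and 1.15 ± 0.19 in 22, 35 and 45). EFNA4 rose for label 35 (0.66 ± 0.14) and in 22 (0.36 ± 0.14), there with a call lost when isolated replicate 2 or 3 or the first or second from co-culture was left out.

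EFNB2, the ligand of EPHB4 that marks arterial vessels, was lower in all 3 lineages (chromosome 13, 106489731 to 106535662, minus strand). Its CPM were 56.8, 62.4 and 76.6 in 22 cells from co-culture, against 108, 111 and 111 in isolated 22 cells (log2 fold change -0.76 ± 0.11, adjusted p = 7.7e-06). For label 35 they were 51.7, 52.2 and 60.3 from co-culture, against 92.8, 105 and 99.2 from isolation (log2 fold change -0.85 ± 0.11, adjusted p = 8.2e-07). Lineage 45 had 41.2, 54.9 and 52.5 from co-culture, against 83.5, 87.9 and 87.2 from isolation (log2 fold change -0.80 ± 0.11, adjusted p = 9.9e-06). Every library from co-culture was below every isolated library of its own label. EFNB1, on the X chromosome, fell in 22 to 3.55 ± 0.404 CPM from co-culture, against 7.85 ± 0.606 from isolation (log2 fold change -1.14 ± 0.13, adjusted p = 5.4e-07). It was called higher in 45 (0.35 ± 0.13), but not without replicate 2 or 3 of either group. EFNB3 was near the threshold of description and fell for label 35 (-2.13 ± 0.38).

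Eph receptors are receptor tyrosine kinases, and EPHA4, which binds ephrins of both classes, was lower in all 3 lineages (chromosome 2, 221418027 to 221574202, minus strand). It had 11.3, 12.4 and 13.5 CPM in 22 cells from co-culture, against 44.9, 45.7 and 45.4 in isolated 22 cells (log2 fold change -1.87 ± 0.10, adjusted p = 4.0e-11). Lineage 45 had 9.19, 10.4 and 9.76 CPM from co-culture, against 21.8, 24.7 and 23.6 from isolation (log2 fold change -1.26 ± 0.10, adjusted p = 1.7e-08). For label 35 it had 7.81, 8.74 and 10.3 CPM from co-culture, against 17.3, 16.8 and 15.2 from isolation (log2 fold change -0.88 ± 0.10, adjusted p = 3.2e-07). Isolated groups differed among themselves, and from co-culture all 9 libraries lay between 7.81 and 13.5 CPM. EPHA2, the main receptor of ephrin-A1, moved the other way by small steps. Its CPM were 521, 562 and 570.1 in 22 cells from co-culture, against 436, 429 and 416 in isolated 22 cells (log2 fold change 0.37 ± 0.08, adjusted p = 9.5e-04). For label 35 they were 485, 469 and 476 from co-culture, against 364, 339 and 343 from isolation (log2 fold change 0.45 ± 0.08, adjusted p = 9.1e-05). In 45 they were 373, 474 and 479 from co-culture, against 372, 338 and 333 from isolation (log2 fold change 0.35 ± 0.08, adjusted p = 0.0026), where the lowest library from co-culture and the highest isolated one were nearly level.

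Other Eph receptors changed in 1 or 2 lineages or in opposite directions. EPHB3 rose for label 35 (log2 fold change 1.35 ± 0.15, adjusted p = 1.2e-07) and in 45 to 7.03 ± 0.315 CPM from co-culture, against 3.28 ± 0.249 from isolation (log2 fold change 1.10 ± 0.14, adjusted p = 3.7e-06). EPHB4, the receptor of ephrin-B2, rose in 22 to 85.2 ± 4.57 CPM from co-culture, against 61.8 ± 3.93 from isolation (log2 fold change 0.46 ± 0.08, adjusted p = 6.1e-05), and for label 35 (0.39 ± 0.08). EPHB6, which lacks kinase activity, was low everywhere and fell in 22 to 0.230, 0.205 and 0.236 CPM from co-culture, against 1.73, 1.51 and 2.67 from isolation (log2 fold change -3.13 ± 0.41, adjusted p = 2.9e-06). It fell in 45 as well (log2 fold change -2.60 ± 0.40, adjusted p = 4.7e-05), with no overlap in either lineage. EPHA5 rose for label 35 to 2.86, 2.86 and 2.97 CPM from co-culture, against 0.161, 0.332 and 0.436 from isolation (log2 fold change 3.20 ± 0.25, adjusted p = 6.3e-10), and fell in 22 (log2 fold change -0.96 ± 0.18, adjusted p = 1.9e-04). EPHB2 rose for label 35 (0.45 ± 0.10) and fell in 45 (-0.37 ± 0.10). EPHA10 fell for label 35 (-0.67 ± 0.20), a call lost without the second isolated library. EPHA6 fell in 22 to 0.464 ± 0.241 CPM from co-culture, against 1.27 ± 0.249 from isolation, and its call for label 35 rested on 6 counts from co-culture, against 0 in isolation. The call for label 35 was lost in 5 of 6 fits with 1 library left out (adjusted p up to 0.133).

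SLIT2, the only SLIT above 1 CPM, and its receptors changed with the lineage. SLIT2 (chromosome 4, 20253260 to 20620561, plus strand) had 14.7, 16.8 and 16.1 CPM in 22 cells from co-culture, against 27.3, 31.5 and 31.0 in isolated 22 cells (log2 fold change -0.92 ± 0.12, adjusted p = 2.3e-06). For label 35 it had 16.5, 18.2 and 18.9 CPM from co-culture, against 11.5, 11.2 and 10.9 from isolation (log2 fold change 0.67 ± 0.12, adjusted p = 5.8e-05). In 45 it had 12.9, 18.8 and 18.9 CPM from co-culture, against 18.1, 17.6 and 18.9 from isolation, which overlapped and were not called apart. ROBO1 (chromosome 3, 78597240 to 79767815, minus strand) changed most among the genes with over 3 counts in both groups labelled 35, with 9.15, 11.2 and 10.8 CPM from co-culture, against 0.0968, 0.194 and 0.124 from isolation (log2 fold change 6.17 ± 0.38, adjusted p = 2.6e-10). It rose in 45 to 2.26, 5.85 and 3.31 CPM from co-culture, against 1.23, 0.837 and 1.502 from isolation (log2 fold change 1.67 ± 0.28, adjusted p = 1.8e-04). In 22 it had 25.9, 33.5 and 32.3 CPM from co-culture, against 38.02, 34.1 and 36.8 from isolation, which was not called. ROBO3, known from mammals as a divergent member with little affinity for SLITs, fell in 22 (-0.66 ± 0.12) and 45 (-0.56 ± 0.12). ROBO4, best known from vessels, rose for label 35 to 37.2, 34.8 and 34.1 CPM from co-culture, against 16.2, 22.8 and 28.4 from isolation (log2 fold change 0.65 ± 0.13, adjusted p = 2.7e-04).

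Across all 3 lineages 7 guidance genes were called higher from co-culture (EFNA1, EFNA3, EPHA2, SEMA3E, SEMA3F, SEMA3G and SEMA4G) and 3 lower (EFNB2, EPHA4 and SEMA4D), where 7.77% and 10.6% of all genes were. Counted in lineages 22 and 45 alone, 8 were higher in both and 14 lower in both, beside 12.8% and 16.4% of all genes. The 14 lower ones held both neuropilins, 5 plexins (PLXNA1, PLXNA2, PLXNA3, PLXNA4 and PLXNB3), SEMA3A, SEMA3C, SEMA4D, EFNB2, EPHA4, EPHB6 and ROBO3. With the 6 libraries labelled 35 left out of the fit altogether, 9 were higher and 11 lower in both, 13 were higher and 18 lower in 22, and 14 higher and 16 lower in 45.

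The change with co-culture differed between the lineages for 39 of the 49 genes (F test of the interaction of lineage and culture), beside 55.2% of all genes. In pairs, the change in 22 differed from that for label 35 in 37 genes (49.6% of all), the change for label 35 from that in 45 in 29 (42.3%), and the change in 22 from that in 45 in 13 (17.3%). NRP2 led with an interaction p of 4.2e-13 after adjustment, followed by SEMA3A (5.3e-12), SEMA3E (5.4e-11) and NRP1 (7.5e-10). The difference between lineages 22 and 45 uses no library labelled 35. For NRP2 it was -0.79 ± 0.18 on the log2 scale (adjusted p = 0.0043) and for SEMA3E 1.45 ± 0.26 (6.8e-04), while for SEMA3A it was 0.07 ± 0.20 (0.85). For SLIT2, which fell in 22 and was not called in 45, it was -0.80 ± 0.17 (0.0022), and EFNB1 differed most by p (-1.49 ± 0.18, adjusted p = 1.5e-05).

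Isolated lineages also differed among themselves. Isolated 22 cells had more of 35 guidance genes and less of 7 than isolated cells labelled 35, where 32.2% and 31.4% of all genes were higher and lower, and the median log2 difference was 0.91 beside 0.00 over all genes. Against isolated 45 cells, isolated 22 cells were higher for 18 genes and lower for 5 (18.6% and 19.8% of all genes, median 0.18). Isolated cells labelled 35 were higher than isolated 45 cells for 6 genes and lower for 25 (24.3% and 27.6% of all genes, median -0.42). NRP2 was 10.0-fold higher in isolated 22 cells than in those labelled 35 (log2 fold change 3.32 ± 0.15, adjusted p = 1.1e-13) and 10.3-fold lower in those labelled 35 than in 45 (log2 fold change -3.36 ± 0.15, adjusted p = 1.1e-13). ROBO1 was higher in isolated 22 cells than in those labelled 35 (log2 fold change 7.97 ± 0.36, adjusted p = 3.9e-12) and than in 45 (log2 fold change 4.92 ± 0.27, adjusted p = 2.4e-10). SEMA3E was lower in isolated 22 cells than in 45 (log2 fold change -3.07 ± 0.20, adjusted p = 2.3e-10), and PLXND1 higher (log2 fold change 1.33 ± 0.09, adjusted p = 3.7e-10).

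Several genes were present in only some of these isolated lineages. EPHA6 had 132 counts in isolated 22 cells, against 0 in those labelled 35 and 0 in 45, at least 42.2-fold and 47.9-fold higher. SEMA5A had 0 counts in isolated 22 cells, against 429 in those labelled 35, and those labelled 35 exceeded isolated 45 cells with a ratio of 487 (95% interval 87.0 to 19288). SEMA6D was higher in isolated 22 cells than in those labelled 35 by a ratio of 479 (85.7 to 18974). The same pairs were compared from co-culture. Cells of 22 from co-culture were higher than libraries labelled 35 for 17 genes and lower for 7 (15.6% and 15.5% of all genes) and higher than 45 for 16 and lower for 6 (13.2% and 12%), though only 5 were higher when these 2 groups were fitted alone. Libraries labelled 35 from co-culture were higher than 45 for 7 and lower for 7 (6.42% and 6.28%), but for 4 to 7 and 3 to 6 when 1 library was left out, with fewest higher (4) without replicate 1 or 3 labelled 35 or replicate 1 or 2 of 45, and fewest lower (3) without the third labelled 35.

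Differences among co-cultured cells included the SEMA3E receptor, SEMA3E and ROBO1. PLXND1 was 159.5, 149 and 162 CPM in 22 cells from co-culture, against 61.8, 66.2 and 67.2 in libraries labelled 35 (log2 fold change 1.27 ± 0.09, adjusted p = 3.6e-09) and 69.9, 75.1 and 89.9 in 45 (log2 fold change 1.003 ± 0.087, adjusted p = 8.9e-08). SEMA3E was lower in 22 than in libraries labelled 35 (log2 fold change -2.32 ± 0.16, adjusted p = 5.1e-09) and than in 45 (log2 fold change -1.61 ± 0.16, adjusted p = 6.0e-07). It was also higher in libraries labelled 35 than in 45 (log2 fold change 0.71 ± 0.15, adjusted p = 0.0030). ROBO1 was higher in 22 than in 45 (log2 fold change 3.01 ± 0.23, adjusted p = 1.0e-07) and in libraries labelled 35 than in 45 (log2 fold change 1.45 ± 0.23, adjusted p = 3.6e-04). Levels of ROBO1 from co-culture thus ordered as 22, label 35 and 45, with no overlap between any of the 3 groups.

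In the second table, guidance genes were more often lower than higher in the lineages relative to Pop. Lineage 13 had 6 of 46 genes higher and 27 lower than Pop, where 21.0% and 24.2% of all genes were. Lineage 10 had 8 higher and 23 lower (18.8% and 23.5% of all genes), and lineage 03 had 14 higher and 19 lower (23.2% and 25.5%). Medians of the log2 difference were -0.56, -0.38 and -0.07 in lineages 13, 10 and 03, beside -0.01, -0.02 and -0.03 over all genes. The 3 comparisons share the Pop libraries, of which replicate 1 stood apart from the other 2. Without it 6, 7 and 12 genes were higher and 29, 26 and 19 lower in lineages 13, 10 and 03. All 8 Eph receptors described were lower in 13, 7 were lower in 10, and 5 were lower and 1 higher in 03, while plexins were 1 higher and 3 lower in 13, 2 and 3 in 10, and 5 and 2 in 03. The EPHB4 call in 13 was lost in 4 of 6 fits with 1 library left out (adjusted p up to 0.129). The calls of PLXNB3 and PLXNC1 in 03 were lost in 3 and 2 of 6 such fits (up to 0.148 and 0.0848).

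**Figure D4:**
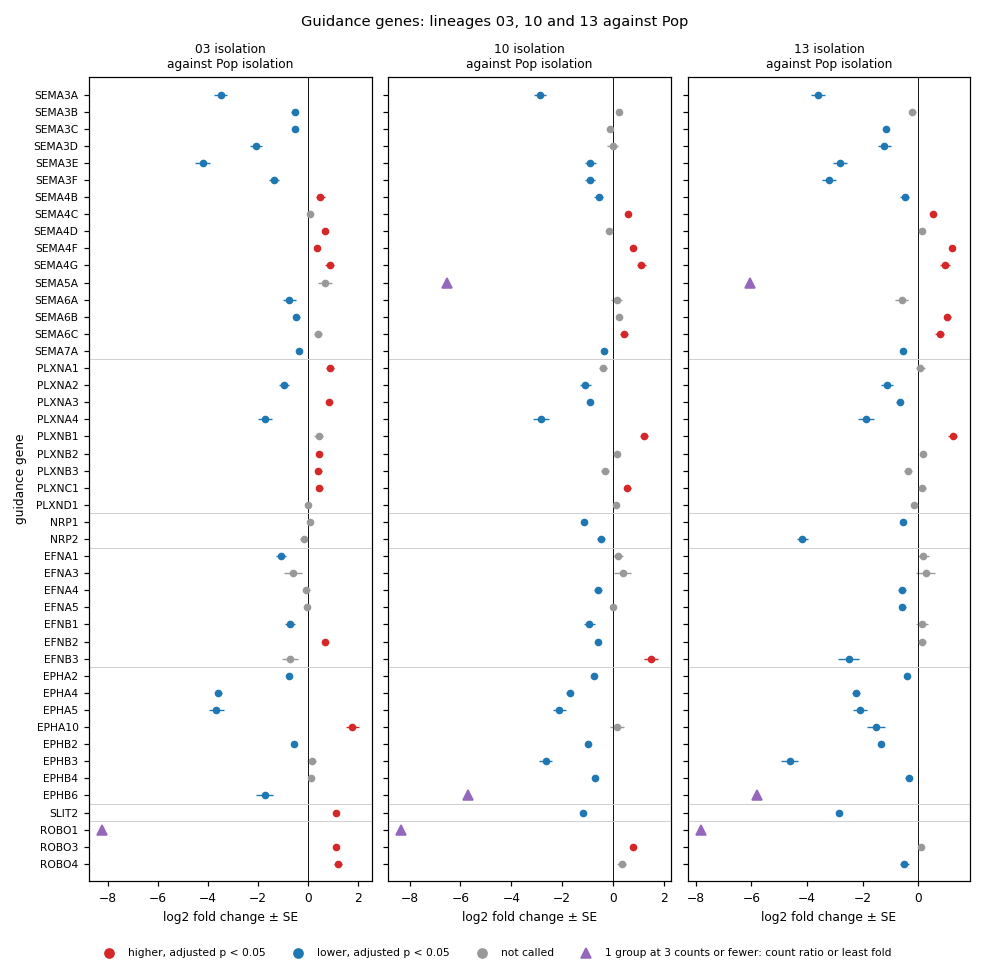
Log2 fold change of each guidance gene between lineages 03, 10 and 13 and Pop, all in isolation. Points are edgeR estimates with bars of 1 SE, red where higher, blue where lower and grey where not called, and genes with 3 or fewer counts in a group are drawn at their count ratio or bound. EPHA4 and SEMA3A lie left of 0 in all 3 lineages, and SLIT2 lies right of 0 in 03 (1.13) and left of 0 in 10 (-1.20) and 13 (-2.86).

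Among the secreted ligands, SEMA3A was lower than Pop in all 3 lineages and SLIT2 differed in both directions. SEMA3A had 2.95, 2.90 and 6.65 CPM in lineage 03, 5.83, 6.10 and 7.71 in 10 and 4.19, 4.42 and 3.03 in 13, against 43.7, 47.3 and 51.8 in Pop. Every lineage library was below every Pop library (log2 fold changes -3.50 ± 0.25, -2.86 ± 0.24 and -3.61 ± 0.25, adjusted p = 1.6e-07, 1.1e-06 and 1.5e-07 for 03, 10 and 13). SLIT2 had 84.4, 91.6 and 73.4 CPM in 03, 15.1, 16.4 and 18.2 in 10 and 5.23, 5.14 and 5.32 in 13, against 33.2, 41.1 and 39.9 in Pop. It was higher than Pop in 03 (log2 fold change 1.13 ± 0.10, adjusted p = 1.4e-06) and lower in 10 (log2 fold change -1.20 ± 0.11, adjusted p = 1.6e-06) and in 13 (log2 fold change -2.86 ± 0.12, adjusted p = 9.4e-10), with no overlap between any 2 groups. Between lineages, SLIT2 was 15.9-fold higher in 03 than in 13 (log2 fold change 3.99 ± 0.12, adjusted p = 3.5e-11) and 5.01-fold higher in 03 than in 10 (log2 fold change 2.33 ± 0.11, adjusted p = 2.4e-09).

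SEMA3F was also lower than Pop in 13, at 1.02, 0.806 and 0.944 CPM against 7.67, 8.47 and 9.61 in Pop (log2 fold change -3.21 ± 0.24, adjusted p = 2.3e-07), and in 03 (-1.37 ± 0.21). SEMA3D fell in 03 relative to Pop (-2.07 ± 0.24), and SEMA3E was 0.219 ± 0.113 CPM in 03, 2.18 ± 0.483 in 10 and 0.569 ± 0.0688 in 13, against 4.06 ± 0.429 in Pop. Among membrane-bound semaphorins, SEMA4F was higher in 13 (log2 fold change 1.21 ± 0.10, adjusted p = 4.7e-07) and 10 (0.77 ± 0.10), SEMA4C in 10 (0.59 ± 0.10) and 13 (0.53 ± 0.10), and SEMA6B in 13 (1.04 ± 0.13). SEMA4D was higher than Pop in 03 (0.66 ± 0.12).

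The receptor ROBO1 was at or near 0 in all 3 lineages, and the ligand SEMA5A in 10 and 13. ROBO1 had 2 counts in 03, 2 in 10 and 0 in 13, against 5.02, 7.44 and 6.87 CPM and 650 counts in Pop. The ratio of Pop to 03 was 303 (95% counting interval 83.6 to 2509) and of Pop to 10 it was 320.5 (88.4 to 2652), and 13 was at least 227-fold lower than Pop. SEMA5A had 2.81, 3.16 and 3.04 CPM in 03, 2 counts in 10 and 0 in 13, against 1.4, 1.79 and 2.44 CPM in Pop. Pop exceeded 10 with a ratio of 93.2 (25.4 to 775), and 13 was at least 66.0-fold lower than Pop. EPHB6 had 0 counts in 10 and in 13, against 158 in Pop, at least 51.9-fold and 55.1-fold lower.

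NRP2 was low in lineage 13 alone, with 20.1, 18.8 and 20.6 CPM in 03, 14.2, 17.8 and 15.7 in 10 and 1.19, 1.45 and 1.03 in 13, against 17.3, 20.3 and 28.6 in Pop (log2 fold change -4.17 ± 0.20, adjusted p = 4.3e-09). Its libraries in 03 and in 10 overlapped those of Pop, and the call in 10 (log2 fold change -0.48 ± 0.16, adjusted p = 0.026) was lost without replicate 1 or 3 of 10 or the third of Pop. NRP2 was also higher in 03 than in 13 (log2 fold change 4.01 ± 0.20, adjusted p = 3.8e-09) and in 10 than in 13 (log2 fold change 3.69 ± 0.20, adjusted p = 2.6e-08). NRP1 was lower than Pop in 10, at 209, 196 and 213 CPM against 403, 464 and 493 in Pop (log2 fold change -1.14 ± 0.11, adjusted p = 2.4e-06). EPHA4 had 2.33, 1.51 and 2.03 CPM in 03, 6.87, 6.79 and 7.84 in 10 and 4.91, 4.84 and 5.01 in 13, against 19.7, 25.5 and 24.8 in Pop. No 2 of these groups overlapped, and all 3 lineages were called lower than Pop (log2 fold changes -3.58 ± 0.15, -1.70 ± 0.13 and -2.24 ± 0.14, adjusted p = 1.3e-09, 5.2e-07 and 4.1e-08 for 03, 10 and 13).

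Some plexins and ROBO3 and ROBO4 were highest in lineage 03. PLXNA3 had 105, 125 and 119 CPM in 03, 35.8, 35.8 and 33.0 in 10 and 43.1, 42.7 and 36.4 in 13, against 52.7, 68.2 and 74.8 in Pop, and 03 exceeded Pop (log2 fold change 0.83 ± 0.12, adjusted p = 6.5e-05) and lineage 10 (log2 fold change 1.74 ± 0.12, adjusted p = 8.8e-08). PLXNA1 was higher in 03 than in Pop (0.88 ± 0.16), whereas PLXNA4 was lower in 03 (-1.72 ± 0.29) and in 10 (-2.83 ± 0.31). PLXNB1 was higher than Pop in 10 (1.21 ± 0.17) and 13 (1.22 ± 0.17). ROBO3 had 24.1, 22.6 and 23.1 CPM in 03, 19.2, 18.3 and 17.4 in 10 and 9.60, 12.1 and 12.02 in 13, against 11.2, 10.4 and 10.1 in Pop (log2 fold change 1.13 ± 0.10, adjusted p = 8.1e-07 for 03). ROBO4 was 93.03, 97.9 and 94.4 CPM in 03, 45.2, 55.04 and 56.2 in 10 and 19.7, 34.6 and 33.2 in 13, against 45.5, 36.3 and 42.7 in Pop (log2 fold change 1.20 ± 0.17, adjusted p = 6.1e-05 for 03). ROBO3 and ROBO4 are neighbours on chromosome 11, between 124865386 and 124898500.

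Lineages 03, 10 and 13 also differed from each other. Lineage 03 was higher than 10 for 19 genes and lower for 14 (26.4% and 25% of all genes), and higher than 13 for 22 and lower for 11 (26.1% and 27.1%). Lineage 10 was higher than 13 for 18 and lower for 9 (16.6% and 18%). SEMA5A was present in 03 with 283 counts, against 2 in 10 (ratio 149.6, 95% counting interval 41.0 to 1241) and 0 in 13 (at least 106-fold higher). SLIT2 was higher in 10 than in 13 (log2 fold change 1.66 ± 0.12, adjusted p = 2.6e-07).

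Where the genes lie on the chromosomes moved with some of these values. In 22 cells from co-culture against isolated 22 cells the median log2 fold change of 460 X-linked genes was -0.84, and the X-linked guidance genes were all lower there: EFNB1 (-1.14 ± 0.13), PLXNA3 (-1.59 ± 0.15) and PLXNB3 (-1.31 ± 0.25). The X median was 0.26 for label 35 and -0.15 in 45. In isolated 22 cells it was 0.70 above those labelled 35 and 0.51 above 45. In lineage 10 the X median was -0.64 relative to Pop, where EFNB1 was -0.95 ± 0.21 and PLXNA3 -0.90 ± 0.12, and PLXNB3 was -0.32 ± 0.15 and not called. Chromosome 7, which carries 8 of the 60 genes including SEMA3A, SEMA3C, SEMA3D and SEMA3E within 80742538 to 85186855, had a median of -0.31 over 672 genes in 45 from co-culture against isolation and of 0.03 in 22. Its guidance genes went both ways in 45. SEMA3E (0.76 ± 0.16) and SEMA3D (0.80) were higher, SEMA3A (-0.43 ± 0.14), SEMA3C, PLXNA4 (-1.69 ± 0.19) and EPHB6 were lower, and EPHB4 was not called. Chromosome 4, with SLIT2 and EPHA5, had a median of -0.35 over 509 genes in 22. The part of these shifts in the values of single genes was not tested.

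**Figure D5:**
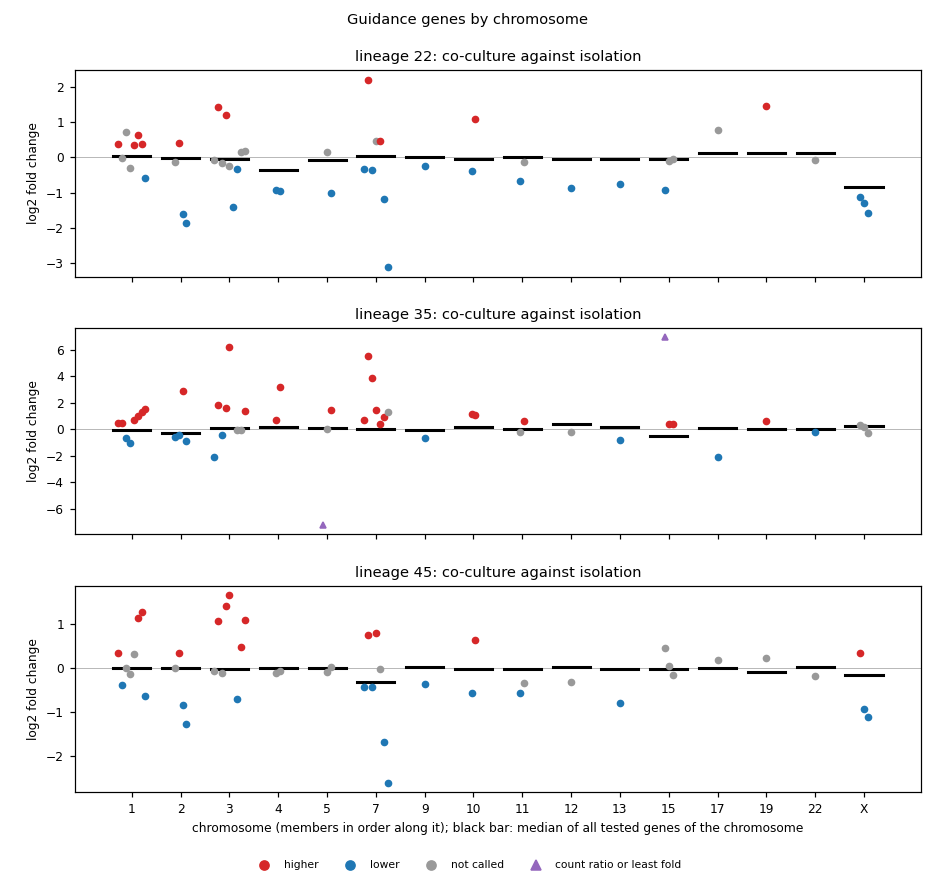
Log2 fold changes of guidance genes by chromosome, beside the median of all tested genes on each chromosome, for cells from co-culture against isolated cells in lineages 22, 35 and 45. Points are guidance genes, those with 3 or fewer counts in a group at their ratio or bound, and short lines are chromosome medians. On the X chromosome in lineage 22 the median is -0.84 and the 3 guidance genes lie between -1.59 and -1.14.

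Markers of other cell types also moved with label 35 and with Pop. The 6 endothelial markers summed to 124 to 134 CPM in libraries labelled 35 from co-culture, against 6.36 to 7.51 from isolation, and to 140.5 to 149.7 CPM in 22 from co-culture, against 95.8 to 99.8 from isolation. The adhesion gene ESAM made up most of these sums, while CDH5, ERG, VWF and TEK were under 0.5 CPM. The 6 leukocyte markers summed to 66.6 to 72.5 CPM in libraries labelled 35 from co-culture, against 10.4 to 26.5 from isolation. The 5 neuron markers summed to 87.0 to 101.0 CPM from co-culture, against 29.5 to 34.3 from isolation. LAPTM5 made up most of the leukocyte sums and TUBB3 most of the neuron sums. All other leukocyte markers were under 1 CPM, and the next highest neuron marker, SNAP25, reached 1.25 CPM. The neuron sum was also higher from co-culture in 22 (155.1 to 161.3 CPM, against 105.6 to 113.7) and in 45 (107.6 to 118.9, against 84.0 to 88.5). The leukocyte sum was lower from co-culture in both. In the second table the endothelial sum was 13.5 to 17.4 CPM in 03, 30.1 to 32.7 in 10 and 6.14 to 8.01 in 13, against 80.9 to 94.6 in Pop. Their part in the guidance gene results was not tested.

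Other genes of guidance signalling, a list of 64 (netrins and their receptors, FLRTs, VEGFs, adaptors and GTPase regulators), changed in both directions. Of 50 tested, 9 were higher and 13 lower in 22 from co-culture, 21 and 18 for label 35, and 11 and 17 in 45, with medians of -0.05, 0.08 and -0.10. Of all genes, 27.0% and 30.0% were higher and lower in 22, 32.7% and 32.9% for label 35 and 18.6% and 23.2% in 45, so the share called in 22 was below that of all genes. Tests are given below only for the 4 genes with the smallest p in each lineage, so a gene may also differ in a lineage not named for it. The secreted netrin-like NTN4 rose for label 35 to 61.5 ± 8.96 CPM from co-culture, against 4.28 ± 0.492 from isolation (log2 fold change 3.84 ± 0.12, adjusted p = 5.4e-16), and fell in 22 to 83.3 ± 6.59 CPM, against 172 ± 10.0 (log2 fold change -1.04 ± 0.10, adjusted p = 5.9e-08). FLRT2, a membrane protein that repels axons through UNC5 receptors, rose for label 35 (log2 fold change 3.02 ± 0.11, adjusted p = 8.3e-15). VEGFA, which also binds NRP1, fell in 22 to 87.2 ± 14.0 CPM from co-culture, against 289 ± 18.1 from isolation (log2 fold change -1.73 ± 0.11, adjusted p = 2.6e-10), and in 45 to 118 ± 6.63 CPM, against 221 ± 9.34 (log2 fold change -0.91 ± 0.11, adjusted p = 2.0e-06). PGF, another neuropilin ligand, rose for label 35 (log2 fold change 3.18 ± 0.19, adjusted p = 1.4e-11) and in 45 (log2 fold change 1.18 ± 0.17, adjusted p = 1.6e-05). The adaptor NCK2 fell for label 35 (log2 fold change -1.86 ± 0.08, adjusted p = 1.7e-13) and rose in 45 (log2 fold change 0.63 ± 0.08, adjusted p = 7.0e-06). The netrin receptor NEO1 rose in 45 (log2 fold change 1.37 ± 0.13, adjusted p = 1.8e-07), while in 22 FARP1 and RND1, which act in plexin signalling, moved apart, FARP1 rising (log2 fold change 1.10 ± 0.09, adjusted p = 1.5e-08) and RND1 falling (log2 fold change -2.37 ± 0.24, adjusted p = 1.4e-07). Outside that rule, PGF was also higher in 22 from co-culture (12.8 ± 0.832 CPM, against 6.11 ± 0.727 from isolation), as was NCK2 (28.9 ± 1.29, against 21.2 ± 1.05). VEGFA was also lower for label 35 (150 ± 6.19 CPM, against 283 ± 41.6), and NTN4 in 45 (59.9 ± 3.88, against 92.9 ± 5.38). Relative to Pop, 18 of 52 tested genes of the list were higher and 9 lower in 03, 9 and 19 in 10, and 10 and 20 in 13, beside 23.2% and 25.5%, 18.8% and 23.5%, and 21.0% and 24.2% of all genes.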

How the data were processed

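Bulk RNA from 30 libraries in 10 groups was analysed. The values deposited by the authors are estimated counts per gene, scaled by transcript length, in 2 tables of 26475 genes. Per the submitters' processing notes STAR 2.6.1d and Salmon 1.4.0 were used with GRCh38 (hg38), while the tool that scaled the counts and the annotation are not given in the sources used here. Per the labels' protocols, libraries were made with a stranded mRNA kit from 500 ng of RNA and sequenced in pairs of 75 nt.

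Estimated counts were rounded to whole numbers, normalized by TMM and tested in each table over all its groups with edgeR 4.0.16 in R 4.3.3 (filterByExpr, robust quasi-likelihood F test), which kept 14570 and 14638 genes, and p-values were BH-adjusted over all of them. SE is the absolute log2 fold change divided by the square root of F. CPM use TMM-scaled library sizes. The tables were normalized separately, so tests stay within a table. Alternatives were DESeq2 1.42.0, its size factors, no filter, a stricter filter, a test against 1.5-fold, fits of the compared groups alone, a replicate block, leaving out libraries, and fits without the libraries labelled 35. The scripts were tested on simulated counts. For genes with at most 3 counts in a group, an exact 95% interval of the count ratio or a bound from a floor of 3 counts is printed, covering counting error only.

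For each comparison, fold changes follow a rule of up to 6 higher and 6 lower called genes of at least 5 CPM by size of change, and for the interaction the 10 smallest p. Other genes of the 60 are given to account for their families, and were named with their values in view. The members, the list of 64 pathway genes and the markers were chosen with earlier results of these data known. The level of 1 marker is not reported here. Replicate numbers come from the labels. Deviations of libraries with the same number correlated at 0.166 to 0.360 in 22 and 45 from co-culture, and in no other pair of groups were all 3 correlations above 0.1.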

Additional observations from a re-analysis of the deposited data

Results flagged for a closer look

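Each of the 10 guidance genes with the smallest interaction p is listed because its change with co-culture differed between the lineages (edgeR F test over lineages 22, 35 and 45, BH-adjusted over all 14570 genes). NRP2 had an adjusted p of 4.2e-13, with the difference between the change in 22 and that for label 35 at -4.47 ± 0.19 and between label 35 and 45 at 3.69 ± 0.19 on the log2 scale (± SE). SEMA3A followed at 5.3e-12 (-4.24 ± 0.22 and 4.32 ± 0.22), SEMA3E at 5.4e-11 (-3.32 ± 0.32 and 4.77 ± 0.27) and NRP1 at 7.5e-10 (-1.54 ± 0.13 and 1.71 ± 0.13). EPHA5 had 2.6e-09 and SEMA6D 5.4e-09, the second with only 1 count in the isolated libraries labelled 35. ROBO1 had 1.2e-08 (-6.41 ± 0.45 and 4.50 ± 0.54), PLXNA2 2.5e-08, PLXNA4 4.0e-07 and SLIT2 5.3e-07 (-1.59 ± 0.17 and 0.78 ± 0.17).

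In each of the 10 the change was more positive for label 35 than in 22 and in 45. All 10 also had their lowest mean among the isolated groups of the first table under label 35, NRP2 with 1.92 ± 0.313 CPM there, against 19.8 ± 0.487 in isolated 45 cells (mean ± SD, n = 3). Between lineages 22 and 45, which use no library labelled 35, EPHA5 (-0.91 ± 0.26), NRP2, ROBO1 (-1.91 ± 0.35), SEMA3E, SEMA6D (-1.41 ± 0.31) and SLIT2 differed as well (adjusted p = 0.021, 0.0043, 0.0012, 6.8e-04, 0.0039 and 0.0022 in that order). For NRP1 (0.17 ± 0.13, adjusted p = 0.38), PLXNA2 (adjusted p = 0.92), PLXNA4 (adjusted p = 0.20) and SEMA3A (adjusted p = 0.85) no difference was called between these 2 lineages.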

How the results depend on the processing

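Of the 168 calls picked by the naming rule of at least 5 CPM, none reversed direction, and 168 held with DESeq2, 166 with its size factors in edgeR, 164 without the filter on low counts, 167 with a replicate block, 161 with the compared groups fitted alone, 102 in the test against 1.5-fold and 966 of 1008 when 1 library was left out. Calls outside that rule are not in these numbers. Many of those lost without a library are named beside their values, but not all, and the counts of calls include them. A filter of 5 CPM in 3 libraries tested fewer genes and left 6 higher in 22 cells from co-culture, 4 lower in isolated 22 cells than in those labelled 35, 5 higher in 10 than in Pop, 8 lower in 03 than in 10, 3 higher in all 3 lineages and 4 higher in both 22 and 45, a count added after seeing the data. Describing genes from 2 or 0.5 CPM gave 45 and 49, counted over the groups of both tables together, beside 49 at 1 CPM. Fitting 22 and 45 from co-culture alone left 5 higher of 16, and the cause was not tested. With the replicate block, whose numbers pair these 2 groups, 16 were higher and 5 lower in the fit of all groups and in a fit of the 2 groups alone, the second chosen after seeing the data. SEMA7A was the call lost (adjusted p = 0.0517). Between libraries labelled 35 and 45 from co-culture, leaving out 1 library gave 4 to 7 higher and 3 to 6 lower.

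Testing against a 1.5-fold change instead of 0, which asks for larger effects by construction, left 2 genes higher and 1 lower in all 3 lineages and 2 and 4 in both 22 and 45. From co-culture against isolation 5 were higher and 9 lower in 22, 16 and 6 for label 35, and 6 and 4 in 45. Isolated 22 was higher than 45 for 7, and isolated 35 was higher than 45 for 2 and lower for 15. From co-culture 22 was higher than 35 for 5 and lower for 4, and higher than 45 for 3 and lower for 3, and 35 was higher than 45 for 1 and lower for 0. Relative to Pop 4 were higher and 11 lower in 03, 3 and 13 in 10, and 3 higher in 13. Lineage 03 was higher than 10 for 10 and lower for 6, and higher than 13 for 12 and lower for 6, and 10 was higher than 13 for 9 and lower for 0. Where 0 were left, the edgeR test against no change had called 7 and 9. The change with co-culture differed in 24, 15 and 4 genes (22 against 35, 35 against 45, 22 against 45). Genes near 1 CPM rest on few counts per library, so small changes in them were not detectable at this depth.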
